A study of Homo sapiens with 12 samples.

Results

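The comparison described here is estradiol against ethanol vehicle in control T47D cells, across all genes with enough counts to be tested. T47D is an established human breast cancer cell line of luminal type that expresses the estrogen receptor. The control cells are given the genotype wild type and titles with the word normal, with no statement on an empty vector. The comparison takes in 6 of the 12 libraries of the series, 3 in vehicle and 3 in 2 nM estradiol, chosen by their labels. All cells had spent 72 h in medium whose 10% serum had been stripped with charcoal to remove steroids, and then received estradiol or vehicle for 24 h. The other 6 libraries are T47D cells with ectopic HOXB13 under the same treatments, and the control response is set beside theirs. They also entered the filter on low counts, the scaling and the estimate of the spread behind each test of the control cells.

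Estradiol is the main ligand of estrogen receptor alpha, a nuclear receptor that ESR1 encodes. The bound receptor acts at enhancers, mostly far from the genes it regulates, through estrogen response elements or tethered to other factors. In luminal breast cancer cells deprived of steroids, estradiol is known to return cells to the division cycle through cyclin D1, MYC and the E2F factors, which drive the genes of DNA synthesis. The receptor is also known to hold down genes, among them growth factor receptors such as ERBB2.

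Total counts were 19343006 to 21385996 per control library, in which 18692 to 19337 genes were detected. Of 55882 gene symbols, 14799 passed the filter on low counts and were tested. Levels are CPM, each library's counts scaled to a common total after normalization, a scale that is not divided by gene length, so levels are compared between libraries and not between genes. In a principal component analysis of the 6 libraries the first component, 45.7% of the variance, parted estradiol from vehicle. The second, 23.8%, set the libraries numbered 2 in both groups apart, at 39.95 (vehicle) and 21.71 (estradiol) against values below 0 for the other 4. For some lists the counts without these libraries are given as well. The labels do not say whether the 3 libraries of a group were separate cultures, so a p-value covers the spread among these libraries and no more, and that spread may be technical.

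The libraries carried the markers of luminal breast epithelium. KRT8 was at 6808 to 11291 CPM, KRT18 at 2416 to 4149 CPM and GATA3 at 1211 to 1627 CPM over the 6 libraries. The basal keratins KRT5 and KRT14 had at most 2 and 4 counts in a library, and the pan-leukocyte gene PTPRC at most 1. The endothelial cadherin gene CDH5 and the hemoglobin gene HBB had 0 counts in the series. Of the 23 listed markers of basal, stromal, blood and endothelial cells, ACTA2 was the only one above 10 CPM in every library, at 11.9 to 24.1 CPM. ACTA2 did not pass the test, while with the replicate block its adjusted p was 0.003 (higher), and its part in other results was not tested. KRT8 was higher in each estradiol library than in any vehicle library but did not pass the test (adjusted p = 0.136), while with the replicate block its adjusted p was 0.00042, and without libraries 2 in all 4 groups 0.0039. GATA3 was likewise lower in each estradiol library, with an adjusted p of 0.0574, of 0.0028 with the block and of 0.038 without libraries 2. KRT18 passed only with the block (0.0356) or without libraries 2 in all groups (0.029). In bulk RNA, fewer cells of a type and less RNA per cell cannot be told apart.

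Estradiol raised 1280 genes, 8.65% of those tested, and lowered 995, or 6.72%. The test was edgeR's quasi-likelihood test with Benjamini-Hochberg adjustment at 0.05 over all 14799 genes, and "rose" and "fell" below refer to it. Each of the 3 estradiol libraries lay above each vehicle library for 2377 genes (16.1%), and below for 2201 (14.9%). Of the 1280 genes that rose 1270 lay above in this way (99.2%), and of the 995 that fell 978 lay below (98.3%). Groups that do not overlap are thus the rule for called genes and add little to a call. Without vehicle library 1, 626 genes fell, against 647 without estradiol library 2 and 587 without estradiol library 3. Without libraries 2 in all 4 groups 1917 genes rose and 1650 fell. The fit reported here does not use the replicate numbers. Deviations from the group mean correlated across genes at 0.132 to 0.457 for same-numbered vehicle and estradiol libraries, and at -0.352 to 0.105 for others. A fit with the replicate number as a block called 2594 genes higher (17.5%) and 2438 lower (16.5%). That fit held all 1280 of the genes that rose and 994 of the 995 that fell. Where the block moves a list's count by more than 1.5 times, its count is given beside the main one, to be read against the block's own shares of all genes. Of the genes that rose, 396 did so at least 2-fold and 84 at least 4-fold, while of those that fell 193 did so at least 2-fold and 17 at least 4-fold. The genes that rose made up 6.12% to 6.74% of the tested counts in the vehicle libraries and 10.4% to 10.9% in the estradiol libraries. The genes that fell made up 13.1% to 14.5% in vehicle and 8.8% to 9.47% in estradiol.

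The share of genes called was lowest among genes of low level. Among the 25% of genes with the lowest average CPM, 3.86% rose and 2.22% fell, with a median standard error of 0.45 on the log2 scale. In the next 2 sets of 25%, 10.6% and 10.2% rose and 6.7% and 7.49% fell, with median standard errors of 0.19 and 0.14. Among the 25% with the highest, 10% rose and 10.5% fell, with a median standard error of 0.12. The median change of the genes that rose was 1.77 (log2) in the lowest set and 0.58 in the highest. Small shifts of low genes were thus not detectable at this depth.

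The markers of the estrogen response moved as groups that did not overlap. Values in this and the following paragraphs are CPM in the order of libraries 1, 2 and 3, and log2 changes are given ± SE. The SE, here and in the paragraph above, was derived from the test. It is the absolute log2 change divided by the square root of the test's F statistic. GREB1, an early target of the receptor, was at 165, 111 and 195 in vehicle and at 630, 397 and 558 in estradiol (1.75 ± 0.28, adjusted p = 0.00074). All 3 estradiol libraries lay above all 3 vehicle libraries, and library 2 was the lowest in both groups. MYC, the transcription factor of growth and ribosome production, was at 9.03, 8.48 and 8.56 in vehicle and at 36.1, 28.7 and 39.5 in estradiol (2.00 ± 0.21, adjusted p = 2.5e-05). E2F1, an activator of S-phase genes, was at 37.3, 37.6 and 39.8 in vehicle and at 107, 113 and 105 in estradiol (1.51 ± 0.10, adjusted p = 9.4e-07). For both genes the spread within a group was small beside the gap between the groups. ERBB2, the receptor tyrosine kinase also called HER2, fell from 840, 727 and 697 to 320, 332 and 307 (-1.24 ± 0.13, adjusted p = 2.1e-05). TFF1, a secreted trefoil peptide and textbook estrogen target, was near the lower limit in vehicle, at 0, 0.335 and 0.418, and at 2.73, 4.33 and 3.1 in estradiol.

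**Figure D1:**
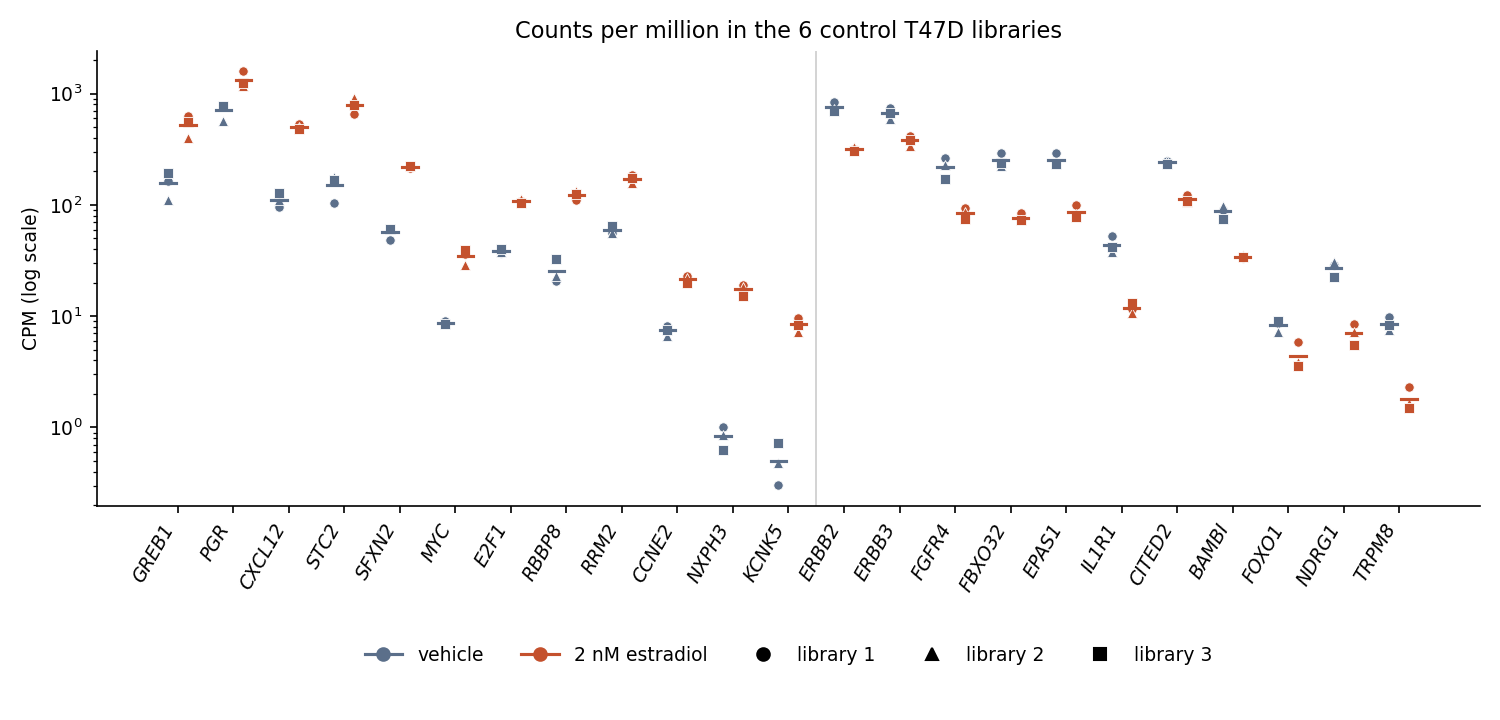
CPM on a log axis of 23 genes in the 3 vehicle (blue) and 3 estradiol (red) libraries of control T47D cells; symbols mark the library number and short lines the group means. Genes left of the divider rose and genes right of it fell, and in each of the 23 the groups do not overlap.

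Ranked by the test statistic, E2F1 was among the first 12 genes that rose, and the others were of mixed function. NXPH3, which encodes a secreted neurexophilin, went from 1, 0.862 and 0.626 to 19.1, 18.3 and 15.1 (4.38 ± 0.24). SLC47A1, an exporter of organic cations, went from 1.5, 1.58 and 2.09 to 19, 19.8 and 20.8 (3.52 ± 0.22). Both had low levels in every vehicle library, and their fitted changes correspond to 20.9-fold for NXPH3 and 11.5-fold for SLC47A1. SFXN2, a mitochondrial carrier of the sideroflexin family, was at 48.5, 60.6 and 60.9 in vehicle and at 213, 226 and 222 in estradiol (1.96 ± 0.12). The next genes by this rank were EXO1, a nuclease of DNA repair, MAP6D1, ITPK1, an inositol phosphate kinase, ZNF703, a transcriptional repressor amplified in some luminal tumors, RBBP8, SLC7A1, MDGA1 and GINS2. Their changes ran from 1.34 (SLC7A1 and GINS2) to 2.28 (RBBP8), each with an adjusted p of at most 1.7e-06.

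The first 12 genes that fell by the same rank included enzymes, receptors and channels. FBXO32, a ubiquitin ligase subunit induced by FOXO factors in muscle wasting, fell from 293, 224 and 238 to 85.3, 72.7 and 72.8 (-1.71 ± 0.12). The sialyltransferase genes ST6GAL1 and ST3GAL1, whose enzymes add sialic acid to glycans, fell by 1.29 and 1.45 on the log2 scale. IL1R1, the signalling receptor for interleukin-1, fell from 52.4, 37.6 and 42 to 11.7, 10.7 and 13.2 (-1.89 ± 0.16). EPAS1, the hypoxia-inducible factor HIF-2 alpha, fell from 292, 234 and 234 to 99.3, 83.4 and 78.6 (-1.54 ± 0.14). NDRG1, a stress-responsive gene, fell by 1.95 and BCAS1 fell by 1.74. CEACAM6, a cell adhesion molecule, fell by 1.59. The potassium channel genes KCNC1 and KCNMA1 fell by 1.96 and 1.45, and the antiproliferative cyclin CCNG2 by 1.29. CITED2, a transcriptional coregulator, is also among the 12. Both ranks took only called genes whose groups did not overlap, with a minimum average level and symbols that are not clone names. Among the 12 genes that fell the adjusted p was at most 1.5e-05.

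Ranked instead by the change in CPM, the first 8 genes included secreted proteins, a chaperone and the progesterone receptor. SERPINA6, corticosteroid-binding globulin, went from 632, 849 and 748 to 1573, 1867 and 1615. PGR, the progesterone receptor, went from 776, 574 and 778 to 1585, 1183 and 1244 (0.91 ± 0.22, adjusted p = 0.012), and without estradiol library 1 its adjusted p was 0.0515. CTSD, the lysosomal protease cathepsin D, went from 745, 1275 and 935 to 1669, 2248 and 1759. In all 3 genes the estradiol libraries lay above the vehicle libraries. FKBP4, a co-chaperone of steroid receptors, went from 450, 514 and 424 to 1297, 1322 and 1146 (1.44 ± 0.12). STC2, the secreted glycoprotein stanniocalcin 2, went from 105, 180 and 169 to 655, 918 and 787 (2.38 ± 0.19). SLC9A3R1, a scaffold of the apical membrane, TUBB, a beta-tubulin, and THBS1, thrombospondin 1, completed these, with changes of 1.09, 0.88 and 1.64. THBS1 was at 246, 169 and 351 in vehicle and 900, 545 and 941 in estradiol.

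Among the largest losses in CPM were ERBB2, the ribosomal RNA genes RNA28S5 and MT-RNR2, the large scaffold genes AHNAK and PLEC, JUP and PLXNB2. JUP, the junction protein plakoglobin, fell from 2293, 2579 and 2298 to 1703, 1726 and 1622. JUP fell by less than 1.5-fold, at a level where that was a large number of counts. RNA28S5, MT-RNR2, AHNAK and PLEC passed the test with all libraries, but each lost its call without at least 3 single libraries. Adjusted p was up to 0.113 for RNA28S5 (without vehicle library 1, estradiol library 1 or estradiol library 3), which also lost its call without libraries 2 in all groups (0.176), and up to 0.101 for MT-RNR2 (without vehicle library 2, estradiol library 2 or 3). It was up to 0.178 for AHNAK (without vehicle library 1 or 3, or estradiol library 2 or 3, and 0.0783 in a fit of the 6 control libraries alone) and 0.173 for PLEC (without any 1 of the 6).

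Of the other genes named below, those said to have risen or fallen kept their call and direction under each of the 13 alternative settings in which they were tested, unless the text says otherwise. This holds for 165 of the 177 named genes that passed the test in the fit reported here. The other 12 are PGR, CDH1, RPL6, RPL9, the 4 genes just described, and TGFB1, EZH1, CSNK1D and ZNF496, whose adjusted p rose to 0.057, 0.121, 0.158 and 0.174 with 1 library left out. By list, the largest shares of risen members were among DNA repair, nucleotide synthesis and E2F genes, and the largest shares of fallen members among FOXO and quiescence genes, luminal transcription factors and cell junction genes. The lists were chosen with earlier results of these data known, so their shares only describe the response. Each count below is to be read against the shares of all genes, 8.65% higher and 6.72% lower.

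The receptor's own gene did not pass the test. ESR1 was at 199, 112 and 167 in vehicle and at 170, 109 and 159 in estradiol (-0.13 ± 0.26, adjusted p = 0.80), and the groups overlapped. Of 33 tested nuclear receptor genes 3 rose and 9 fell (14 with the block), with a median change of -0.31 against -0.01 over all genes. RARA, the retinoic acid receptor alpha, rose from 102, 106 and 99.3 to 176, 178 and 167 (0.76 ± 0.11, adjusted p = 0.00025). Its dimer partner RXRA fell from 426, 335 and 338 to 264, 221 and 233 (-0.62 ± 0.11), and the other retinoid X and vitamin receptor calls were falls too. Of the 11 receptors for retinoids, vitamin D, thyroid hormone and lipids, 5 fell, and 3 fell without vehicle library 1, estradiol library 2 or estradiol library 3. The orphan receptor NR2F1 (COUP-TF1) fell from 28.4, 23.6 and 26.5 to 12.6, 12.7 and 12.4, and NR3C1, the glucocorticoid receptor, by 0.73.

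Among 36 coregulators of the receptor 2 rose and 5 fell, and with the block 6 rose and 14 fell. With libraries 2 left out of all 4 groups, 4 rose and 14 fell. CITED1, a coactivator of the receptor, went from 1.15, 0.814 and 0.992 to 6.3, 8.46 and 4.65 (2.71 ± 0.36, adjusted p = 0.00018). Its paralog CITED2, a partner of p300, went the other way, from 251, 247 and 236 to 123, 107 and 109 (-1.11 ± 0.09). NCOA3, the steroid receptor coactivator also called AIB1, fell from 229, 159 and 244 to 141, 107 and 134. Of the coregulators, 1 rose without vehicle library 1 or 3 or estradiol library 1 or 3. The number that fell was 12 without vehicle library 2, 2 without estradiol library 2 and 3 without vehicle library 1, vehicle library 3 or estradiol library 3.

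Transcription factors of the luminal lineage moved in both directions. Of 22 such genes 3 rose and 7 fell (6 and 12 with the block), and the number that fell was 11 without vehicle library 2 and 4 without estradiol library 3. MYB, a driver of proliferation in receptor-positive cells, rose from 11.8, 11.4 and 13.1 to 30.9, 22.8 and 23.4 (1.09 ± 0.19). ZNF703 rose from 154, 198 and 179 to 486, 510 and 534. ELF5, the factor of alveolar cell fate, fell from 146, 152 and 125 to 89.8, 86.2 and 81.2 (-0.72 ± 0.11). The epithelial differentiation factors ELF3 and GRHL3 fell by 0.92 and 0.76. In each of these 5 genes the 3 libraries of a group lay on one side of the other group.

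Growth factor receptors and their ligands moved in both directions. Of 34 tested genes 6 rose and 4 fell, against 12 and 8 with the block. ERBB3, the kinase-impaired partner of ERBB2, fell from 750, 592 and 675 to 421, 340 and 380 (-0.82 ± 0.12). The 4 ERBB receptor genes summed to 1650, 1357 and 1427 CPM in vehicle and to 797, 713 and 743 CPM in estradiol. FGFR4, a fibroblast growth factor receptor, fell from 263, 227 and 173 to 93.5, 87.1 and 74.6 (-1.38 ± 0.18). RET, the receptor for ligands of the GDNF family, and ARTN, one such ligand, rose together. RET went from 3.81, 3.26 and 3.65 to 8.2, 8.51 and 8.87, and ARTN from 3.76, 5.7 and 3.71 to 11.1, 15.2 and 12.7. In the insulin-like growth factor branch, the binding protein gene IGFBP4 rose from 416, 484 and 458 to 852, 905 and 874 (0.95 ± 0.09), and the adaptor IRS1 by 0.63.

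Of 49 cytokine and chemokine genes 5 rose and 5 fell (13 fell with the block), 10.2% in each direction. With libraries 2 left out of all 4 groups, 6 rose and 10 fell. CXCL12, the ligand of CXCR4, rose from 96.2, 111 and 128 to 535, 499 and 487 (2.18 ± 0.20, adjusted p = 7.5e-06). Its receptor gene CXCR4 fell from 6.17, 3.83 and 5.9 to 1.9, 1.5 and 1.02 (-1.84 ± 0.30). Ligand and receptor thus moved in opposite directions, with no overlap in either. IL6ST, the shared signalling subunit gp130 of the interleukin-6 family, rose from 176, 109 and 182 to 438, 282 and 380, and the kinase gene JAK1, which it uses, from 148, 155 and 192 to 363, 348 and 363. The number of cytokine genes that rose was 3 without vehicle library 1. The number that fell was 3 without vehicle library 1 or 3 and 2 without estradiol library 2.

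Genes that commit cells to S phase rose as a group. Of 18 cyclins and inhibitors of cyclin-dependent kinases, 8 rose and CCNG2 alone fell (3 fell with the block), and of the 9 cyclins and kinases of G1 and S, 7 rose. CCND1, cyclin D1, which starts the inactivation of the retinoblastoma protein, went from 253, 232 and 271 to 457, 408 and 459 (0.81 ± 0.14, adjusted p = 0.0014). CCNE2 and CCNE1, the E cyclins that activate CDK2, rose by 1.54 ± 0.14 and 1.22 ± 0.22. CCNE2 went from 8.12, 6.71 and 7.52 to 23, 21.9 and 19.9, and CDK2 itself from 39.9, 35.7 and 38.9 to 76.5, 73.8 and 75.6. CDC25A, the phosphatase that releases CDK2 from inhibition, rose by 1.23 ± 0.16. CDK4, the partner of cyclin D1, was at 109, 128 and 99.8 in vehicle and at 138, 155 and 137 in estradiol, with an adjusted p of 0.0574, of 0.00024 with the block and of 0.0035 without libraries 2.

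Of 21 E2F factors, pocket proteins and MuvB genes, 11 rose and 0 fell (2 fell with the block), with a median change of 0.50. The number that rose was 9 to 11 with any 1 of the 6 libraries left out. The activators E2F1 and E2F2 rose by 1.51 ± 0.10 and 1.25 ± 0.15. The repressor E2F7, which is itself an E2F target, rose from 7.47, 3.93 and 8.2 to 17.7, 12.9 and 16.7 (1.27 ± 0.31). MYBL1, a MYB family member, rose from 25.4, 12.7 and 23.4 to 78.8, 44.9 and 64.5. RB1, the retinoblastoma gene, was at 74.6, 62 and 74.3 in vehicle and at 84.5, 68.9 and 74.6 in estradiol, an overlap (0.11 ± 0.13, adjusted p = 0.62). In the MYC network of 12 genes, MXD3, an antagonist that is expressed in S phase, went from 9.18, 8.43 and 6.63 to 16.5, 17.9 and 14. MXD4, an antagonist of resting cells, fell from 262, 268 and 234 to 151, 160 and 147 (-0.74 ± 0.13). MYC and MXD3 were the 2 that rose and MXD4 the 1 that fell (3 with the block, 2 without vehicle library 2).

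Promoter sequence was set beside these calls. RefSeq gives windows of 300 bases, 250 before and 50 after a gene's start (GRCh38 build), and 10383 of 12234 tested protein-coding genes considered had one. Where a gene has several, the one listed first was used. An E2F site was counted as TTTCCCGC, TTTCGCGC, TTTGCCGC or TTTGGCGC on either strand. It was present in 9.67% of 972 windows of genes that rose, in 2.66% of 751 of genes that fell, in 5.13% of 8660 of genes not past the threshold and in 3.33% of 27305 windows, 1 for each symbol in the table. Of the 17 windows of E2F, pocket protein and MuvB genes, 6 held a site (35.3%), and of the 34 of repair genes 9 (26.5%). The share was 23.1% for chromatin assembly, 9.38% for nucleotide synthesis, 6.38% for kinesin and kinetochore genes and 5% for ribosome assembly. The stretch around the site is shown for 7 genes that rose, on the gene's strand 5′ to 3′ and ending before the start, with each site in capitals. They are shown because they have the letters close to the start. GINS2 was named by test rank and ZNF367 as a zinc finger gene. The others come from the cell cycle, chromatin and nucleotide groups described here.
E2F1: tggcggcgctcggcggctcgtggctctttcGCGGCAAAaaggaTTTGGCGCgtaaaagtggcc
E2F2: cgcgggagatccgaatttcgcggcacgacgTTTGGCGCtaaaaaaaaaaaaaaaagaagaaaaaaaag
CDC25A: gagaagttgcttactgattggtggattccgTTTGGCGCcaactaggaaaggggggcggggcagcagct
GINS2: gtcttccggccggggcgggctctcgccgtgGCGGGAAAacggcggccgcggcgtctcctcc
HELLS: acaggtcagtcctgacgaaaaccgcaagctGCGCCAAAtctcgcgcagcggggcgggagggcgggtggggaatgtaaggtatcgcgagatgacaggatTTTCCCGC
TYMS: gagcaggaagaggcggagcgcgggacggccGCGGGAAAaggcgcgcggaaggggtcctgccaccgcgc
ZNF367: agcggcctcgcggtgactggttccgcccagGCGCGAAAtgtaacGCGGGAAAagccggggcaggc

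These stretches lie at chr20:33686386-33686448 (E2F1, minus strand), chr1:23531238-23531305 (E2F2, minus), chr3:48188424-48188491 (CDC25A, minus) and chr16:85688955-85689015 (GINS2, minus). The others lie at chr10:94545682-94545787 (HELLS, plus), chr18:657584-657651 (TYMS, plus) and chr9:96418371-96418435 (ZNF367, minus). All are in the 5′ flank of their genes, outside the transcribed part of the model used. E2F1, HELLS and ZNF367 hold 2 sites each and the other 4 hold 1. A match is a description of letters and not a measure of binding.

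An E-box, read as CACGTG, the core that MYC binds with its partner MAX, was present in 14.3% of the windows of genes that rose, in 8.92% of those that fell and in 9.71% of those not past the threshold. It was present in 32.5% of 40 windows of ribosome assembly genes. The CHR element of genes of mitosis, read as TTTGAA or TTCGAA on either strand, was present in 15.6%, 11.2% and 10.4% of the same 3 sets and in 44.7% of 47 windows of kinesin and kinetochore genes. Over all windows in the table its share was 16.6%, above that of the genes that rose. A CRE site (TGACGTCA) was in 4.12%, 2.66% and 3.24% of the 3 sets, and a CCAAT box in 40.7%, 38.2% and 36.3%. The full estrogen response element GGTCANNNTGACC was in 0 windows of the genes that rose or fell, and in 18 of all 27305 windows. Its half-site AGGTCA was in 9.26% of the windows of genes that rose, 10.5% of those that fell and 9.32% of the rest. The windows hold only the start of a gene, and distal enhancers are outside them.

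**Figure D2:**
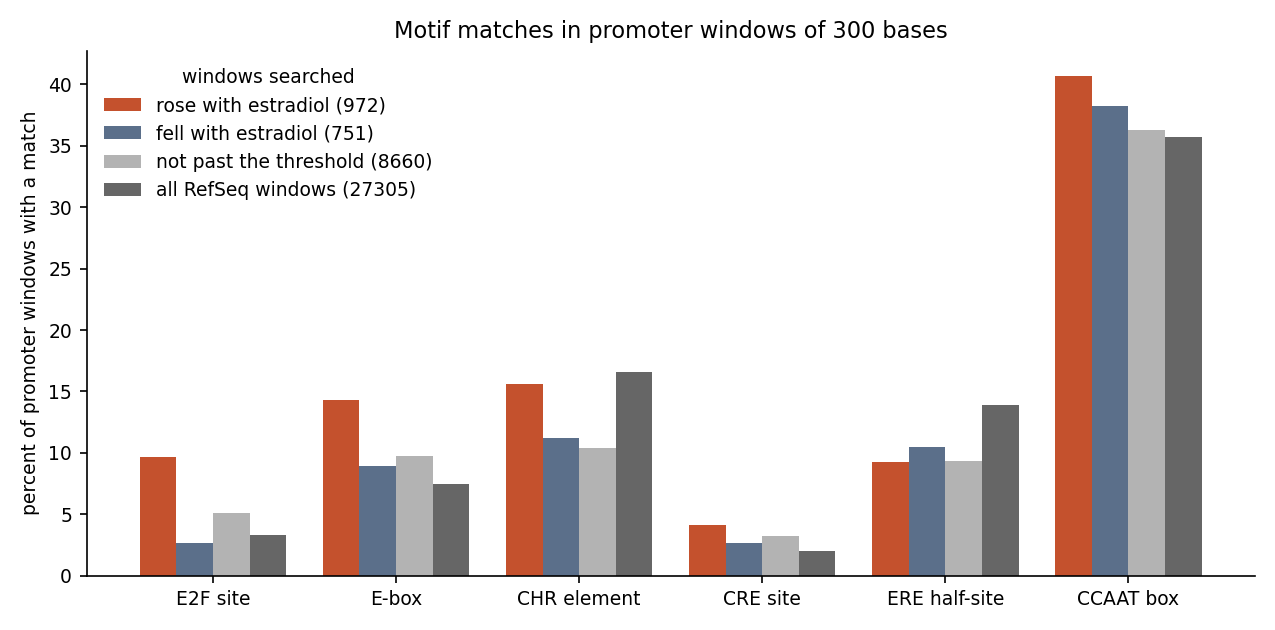
Share of promoter windows with at least 1 match to 6 motifs, among genes that rose (972 windows), fell (751) or were not past the threshold (8660), and among all RefSeq windows (27305). The E2F site reads 9.67% in genes that rose and 2.66% in genes that fell; bars are shares of one gene set each, with no error.

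The DNA repair list had the highest share of risen members. Of 40 genes of homologous recombination, the Fanconi anemia pathway and mismatch repair, 24 rose and 0 fell, with a median change of 0.74. With any 1 of the 6 libraries left out, 17 to 24 rose. In homologous recombination, which copes with broken replication forks, 15 of 21 rose. RBBP8, the end-resection factor CtIP, went from 20.7, 23.1 and 32.7 to 112, 133 and 125 (2.28 ± 0.17, adjusted p = 1.7e-06). EXO1, a nuclease that resects further, went from 13.6, 12 and 12.7 to 41.5, 41.8 and 43 (1.72 ± 0.11). BRCA1, a tumor suppressor of this pathway, went from 35.1, 24.5 and 47.6 to 97.8, 72.2 and 92.6. The libraries of BRCA1 varied more than those of EXO1, yet neither pair of groups overlapped.

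Genes that rebuild chromatin behind the replication fork also rose. Of 29 genes for chromatin assembly and the copying of DNA methylation 12 rose and 2 fell (4 with the block), and of the 9 histone chaperones 7 rose. CHAF1B, a subunit of the CAF-1 complex that deposits histones on new DNA, went from 13, 11.8 and 12.8 to 30.7, 41.8 and 36.6 (1.53 ± 0.15). ASF1B, which hands histones to CAF-1, went from 13.7, 17 and 14.1 to 34.2, 38.3 and 33. HELLS, a remodeler needed for DNA methylation, rose by 1.26 ± 0.17. The Polycomb cofactor JARID2 fell by 0.73 and the Polycomb enzyme EZH1 was the other that fell; 1 fell without any 1 library other than vehicle library 2. The chaperone NAP1L1 was at 476, 580 and 555 in vehicle and at 555, 572 and 576 in estradiol, an overlap.

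No tested histone gene passed the test as higher, and most histone genes could not be tested. Of the 89 symbols of the HIST clusters, 28 had enough counts to be tested, 45 had too few and 16 had none. Of the 28, 0 rose and 4 fell, with a median change of -0.28. The number that fell was 0 to 2 with any 1 of the 6 libraries left out, and with the block 2 rose and 5 fell. Their summed level was 509, 586 and 497 CPM in vehicle and 477, 574 and 448 CPM in estradiol, so the groups overlapped.

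Genes of the spindle and the kinetochore, the protein plate that joins chromosomes to it, also rose. Of 59 kinesin and kinetochore genes 30 rose and 2 fell, with a median of 0.61, and 23 to 30 rose with any 1 of the 6 libraries left out. The number that fell was 1 without vehicle library 3 or estradiol library 3. Of 13 mitotic kinesins 12 rose (7 without estradiol library 3), while of 22 other kinesins 1 rose and 2 fell (4 and 3 with the block, and 2 rose without vehicle library 2). The summed level of the mitotic kinesins was 430, 470 and 558 CPM in vehicle and 832, 749 and 855 CPM in estradiol. KIF11, the motor that pushes spindle poles apart, went from 75.7, 82.3 and 103 to 155, 137 and 162 (0.80 ± 0.13). KIF23, a motor of the midbody, went from 29.7, 30.5 and 40.4 to 64.2, 57 and 64.3 (0.88 ± 0.14). Of 24 kinetochore genes 17 rose, among them CENPM (1.27), SPC25 (1.22), CENPI (1.22) and CENPU (1.12). KIFC3, a motor of cell junctions, fell by 0.71, and the transport motor KIF1C was at 474, 454 and 418 in vehicle and 423, 408 and 410 in estradiol, with an adjusted p of 0.50.

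The CHR letters are shown in capitals for 3 genes that rose, on the gene's strand 5′ to 3′. KIF11 and KIF23, outside the rule for named genes, were chosen for these letters after their values were seen, and ASF1B is a histone chaperone named above.
ASF1B: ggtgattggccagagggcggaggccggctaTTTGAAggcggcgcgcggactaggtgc
KIF11: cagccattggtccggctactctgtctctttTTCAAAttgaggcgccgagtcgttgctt
KIF23: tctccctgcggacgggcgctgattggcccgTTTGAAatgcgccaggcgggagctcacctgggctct

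They lie at chr19:14136590-14136646 (ASF1B, minus strand), chr10:92593072-92593129 (KIF11, plus) and chr15:69414264-69414329 (KIF23, plus), build GRCh38, in the 5′ flank of each gene.

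Of 41 genes of nucleotide synthesis and one-carbon metabolism 24 rose and 0 fell (3 fell with the block and 1 without vehicle library 2), with a median of 0.56, and 21 to 25 rose with any 1 of the 6 libraries left out. The pyrimidine and deoxynucleotide branch had 13 of 16 higher, purine synthesis 6 of 13 and the folate and serine branch 5 of 12 (9 with the block). RRM2, the regulated subunit of ribonucleotide reductase, went from 55.7, 56.4 and 65.3 to 184, 158 and 175 (1.54 ± 0.11, adjusted p = 1.7e-06). TYMS, which makes thymidylate, went from 16.6, 18.8 and 18.7 to 44.2, 46.1 and 43.2 (1.30 ± 0.12). CTPS1, which makes CTP, went from 11.6, 15.7 and 14.3 to 33.8, 39.7 and 39.8. MTHFD1L, a mitochondrial enzyme of the folate cycle, rose by 1.52 ± 0.22. In all 4 genes each estradiol library was above each vehicle library.

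The ribosome was covered by several lists. Of 48 genes of ribosome assembly and RNA polymerase I, 22 rose and 0 fell (35 rose with the block), with a median of 0.38. The number that rose was 12 without vehicle library 1 and 14 without estradiol library 2. Pre-rRNA processing held 20 of these 22. NOP16, a nucleolar factor of the large subunit, went from 7.52, 13.6 and 10.1 to 19.8, 23.4 and 23.9 (1.10 ± 0.19). RRS1, a regulator of ribosome synthesis, went from 29.8, 44 and 30 to 54.3, 85.8 and 61.9, and LYAR and URB2, both nucleolar, rose by 0.93 and 0.92.

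For cytosolic ribosomal protein genes the count depended on the libraries numbered 2. Of 76 such genes 2 rose, RPL6 and RPL9, a share below that of all genes, and 0 fell, yet 62 rose with the block and 47 rose without libraries 2 in all 4 groups. Their median change was 0.32. Their summed level was 33962, 50071 and 39656 CPM in vehicle and 44560, 59264 and 49086 CPM in estradiol. Estradiol was above vehicle within each library number, but vehicle library 2 was above estradiol libraries 1 and 3, so the groups overlapped. With 1 library left out, 40 rose without vehicle library 2, 4 without estradiol library 1 and 0 without any 1 of the other 4. RPL6 and RPL9 thus lost their calls without vehicle library 1 or 3 or estradiol library 2 or 3, with adjusted p up to 0.176 and 0.193, and in a fit of the 6 control libraries alone (0.0714 and 0.0878).

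Of 76 mitochondrial ribosomal protein genes 10 rose (13.2%) and 0 fell. With the block 34 rose, and 25 rose without libraries 2 in all 4 groups. With 1 library left out, the number was 25 without vehicle library 2, 2 without vehicle library 1 or estradiol library 2 and 3 without vehicle library 3 or estradiol library 3. MRPL12, which also binds the mitochondrial RNA polymerase, went from 31, 37.3 and 26.5 to 50.5, 68.5 and 52 (0.85 ± 0.18), and MRPL17 rose by 0.75. MRPS18B was at 129, 175 and 140 in vehicle and at 144, 187 and 157 in estradiol, with an adjusted p of 0.58. Of 89 genes of oxidative phosphorylation 0 rose and 0 fell, and with the block 22 rose and 1 fell. Without libraries 2 in all 4 groups 19 rose, without vehicle library 2, 6 rose, and without estradiol library 1, 1 rose. Their 76 nuclear genes summed to 7128, 9848 and 7847 CPM in vehicle and 8297, 10632 and 8885 CPM in estradiol, again higher within each number with overlapping groups. The 13 genes of the mitochondrial genome summed to 53391, 56387 and 63031 CPM in vehicle and 60228, 48593 and 57043 CPM in estradiol, with no common direction.

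**Figure D3:**
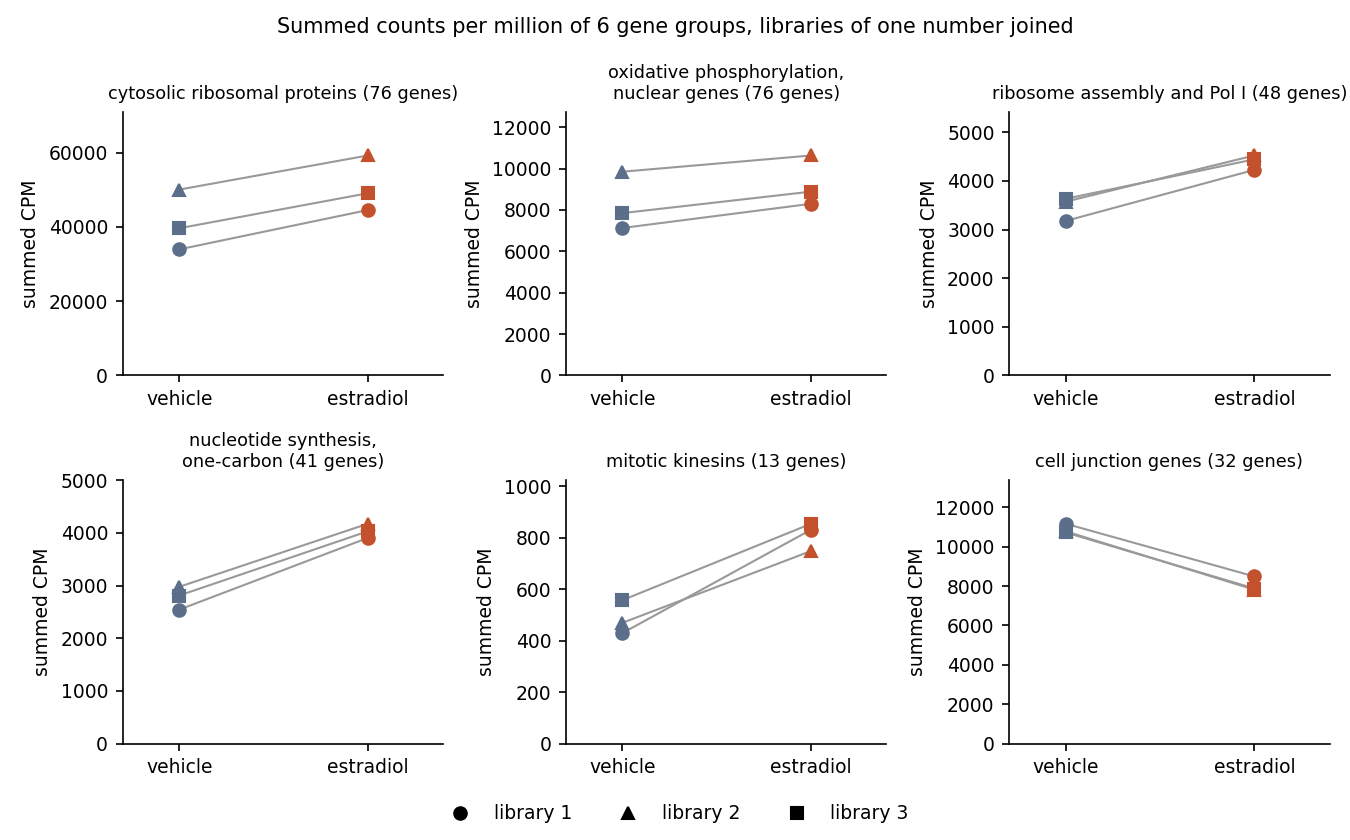
Summed CPM of 6 gene groups in the vehicle and estradiol libraries, with the libraries of one number joined by a line and the axis from 0. For cytosolic ribosomal proteins each line rises, while vehicle library 2 (50071) lies above estradiol library 1 (44560); for cell junction genes each line falls and the groups are apart.

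Genes that supply protein synthesis were next. Of 36 tRNA synthetase and ATF4 target genes 15 rose and 1 fell (23 and 2 with the block). ATF4 is the transcription factor of amino acid shortage, and its target ASNS, asparagine synthetase, went from 19.5, 39.7 and 28.8 to 51.9, 70 and 56.1. CHAC1, a glutathione-degrading enzyme, rose by 1.54 ± 0.28 and CBS, of cysteine synthesis, by 1.03 ± 0.17. DDIT4, an inhibitor of mTOR signalling that ATF4 also induces, went the other way, from 51.3, 47.2 and 38.3 to 15.8, 14.4 and 19.7 (-1.45 ± 0.16). Of the 20 tRNA synthetases 8 rose, 14 with the block, 4 without vehicle library 1 and 5 without estradiol library 1 or 3, and EPRS and QARS did not pass the test (adjusted p of 0.50 and 0.51).

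Amino acid transporter genes rose more often than they fell. Of 26 tested, 5 rose (19.2%, and 10 genes with the block) and 2 fell (7.69%, near the share of all genes). SLC7A5, the exchanger LAT1 for large neutral amino acids, went from 382, 497 and 426 to 875, 1006 and 926 (1.10 ± 0.19). SLC7A1, the carrier of arginine and lysine, went from 43, 40.9 and 42.4 to 100, 106 and 113, and SLC43A3 and SLC1A4 rose by 1.38 and 0.59. SLC7A8, the exchanger LAT2 of the same family as SLC7A5, fell from 217, 231 and 255 to 129, 150 and 147 (-0.72 ± 0.10), and SLC43A2 by 0.51. SLC38A2, the glutamine carrier SNAT2, was at 410, 280 and 340 in vehicle and 341, 240 and 313 in estradiol, with overlapping groups.

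The E-box is shown in capitals for 4 genes that rose, on the gene's strand 5′ to 3′. SLC7A5 and MTHFD1L belong to the transport and folate groups, and SFXN2 and CTSD were described above.
SFXN2: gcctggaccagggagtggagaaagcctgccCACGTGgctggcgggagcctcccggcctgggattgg
SLC7A5: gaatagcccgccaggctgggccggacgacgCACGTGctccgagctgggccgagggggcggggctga
MTHFD1L: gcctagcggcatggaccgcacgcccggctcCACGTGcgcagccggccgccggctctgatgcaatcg
CTSD: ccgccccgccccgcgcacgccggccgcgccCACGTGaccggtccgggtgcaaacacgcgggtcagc

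They lie at chr10:102714501-102714566 (SFXN2, plus strand), chr16:87869602-87869667 (SLC7A5, minus), chr6:150866302-150866367 (MTHFD1L, plus) and chr11:1763939-1764004 (CTSD, minus), build GRCh38, in the 5′ flank of each gene.

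Folding and splicing genes followed with small changes. Of the 8 subunits of the CCT chaperonin, which folds actin and tubulin, 6 rose, but 2 without vehicle library 1, estradiol library 2 or estradiol library 3. CCT5 went from 209, 258 and 260 to 345, 377 and 376, and CCT6A rose by 0.44 ± 0.09. Of 37 proteasome genes 0 passed the test, and with the block 11 rose and 1 fell. Of 79 splicing factor genes 12 rose and 0 fell (35 rose with the block, 30 without libraries 2 in all 4 groups and 21 without vehicle library 2). SRSF2 went from 65.5, 72 and 66.4 to 109, 125 and 120 (0.79 ± 0.09), and HNRNPAB, SRSF7 and SNRPA1 rose by 0.97, 0.85 and 0.59. All 4 of these genes had groups that did not overlap.

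The FOXO and quiescence list had the highest share of fallen members. FOXO factors drive genes that hold cells out of the cycle, and they are inactivated by growth factor signalling. Of 25 tested genes 0 rose and 10 fell (16 with the block), with a median of -0.51, and 8 to 13 fell with any 1 of the 6 libraries left out. FOXO1 went from 8.77, 7.23 and 9.03 to 5.81, 3.87 and 3.59 (-0.91 ± 0.20). FOXO3 was at 108, 72.5 and 114 in vehicle and at 88.1, 61.4 and 79.7 in estradiol, with an adjusted p of 0.218, of 0.0009 with the block and of 0.0039 without libraries 2. Among the antiproliferative genes PIK3IP1, an inhibitor of PI3 kinase, went from 17.9, 15.8 and 15.8 to 7.91, 6.76 and 7.66, and TSC22D3, the glucocorticoid-induced leucine zipper GILZ, from 43.2, 41 and 40.8 to 23.5, 15.8 and 23.9. CCNG2, which FOXO factors induce, went from 92.3, 73.5 and 75.9 to 34.2, 30.3 and 34.5. CCNG1, its paralog, was at 139, 178 and 176 in vehicle and at 144, 143 and 142 in estradiol (adjusted p = 0.21).

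Of 44 genes of the TGF-beta and BMP pathway 2 rose and 12 fell (4 and 22 with the block), with a median of -0.29, and 8 to 15 fell with any 1 of the 6 libraries left out. The 2 that rose were BMP8B and TGFB1, and 1 rose without estradiol library 1. Among ligands, TGFB3 went from 235, 228 and 215 to 113, 120 and 126 (-0.91 ± 0.10, adjusted p = 2.8e-05), while BMP8B rose by 0.95 ± 0.19. Of the inhibitors, BAMBI, a decoy receptor, went from 89.9, 98.4 and 74.6 to 33.6, 35.2 and 33.8 (-1.36 ± 0.14), and CHRD, which binds BMPs outside the cell, fell by 1.34 ± 0.29. ID2, a target gene of BMP signalling, fell from 18.8, 15.1 and 12.8 to 8.94, 7.17 and 6.84. In TGFB3, BAMBI and ID2, a ligand, an inhibitor and a target, the groups did not overlap.

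Cell junction genes that passed the test were all lower. Of 32 tested, 0 rose and 10 fell. With the block 2 rose and 18 fell, 6 fell without estradiol library 3 and 1 rose without vehicle library 2. Their summed level was 11161, 10776 and 10717 CPM in vehicle and 8486, 7813 and 7874 CPM in estradiol. CLDN4 and CLDN1, claudins of tight junctions, went from 756, 777 and 678 to 435, 458 and 443, and from 674, 576 and 522 to 435, 366 and 334. CDH1, E-cadherin, went from 1459, 1252 and 1413 to 1094, 920 and 1025 (-0.44 ± 0.11, adjusted p = 0.0129). Its groups did not overlap, but its adjusted p was 0.055 without vehicle library 1 and 0.0698 without estradiol library 2. JUP, described above, belongs to both adherens junctions and desmosomes.

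Guidance molecules, first known from growing axons, fell more often than they rose. Of 51 tested 5 rose and 12 fell (19 with the block), and 3 rose without estradiol library 1. PLXNB2, a plexin receptor for semaphorins, went from 1211, 1072 and 1211 to 699, 635 and 667 (-0.80 ± 0.11). The netrin receptor gene UNC5A went from 6.67, 8.77 and 6.32 to 1.17, 2.32 and 2.47, and the ephrin genes EFNB2 and EFNA1 and the netrin gene NTN4 fell by 1.14, 0.90 and 0.97. Against this trend the secreted semaphorin SEMA3G went from 1.7, 3.07 and 2.92 to 12, 12.7 and 12.6 (2.27 ± 0.24), and SEMA6A rose by 1.13.

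Ion channel genes moved strongly in both directions. Of 65 tested 10 rose and 8 fell (14 fell with the block), and of 36 potassium channel genes 9 rose and 3 fell (6 fell with the block). KCNK5, a leak channel, went from 0.301, 0.479 and 0.731 to 9.72, 7.22 and 8.34 (4.05 ± 0.39). KCNH1, a voltage-gated channel, went from 2.81, 1.25 and 3.76 to 17.4, 14.4 and 16.3, and KCNQ5 and KCNF1 rose by 2.60 and 1.57. KCNC1 went from 49.4, 43.8 and 42.4 to 10.5, 11.7 and 12.7 (-1.96 ± 0.16), and KCNMA1, the calcium-activated BK channel, from 96.5, 71.3 and 80.6 to 32.2, 29.8 and 28.9. TRPM8, a cold- and menthol-gated cation channel that androgen induces in prostate cells, fell from 9.88, 7.47 and 8.35 to 2.3, 1.65 and 1.5. CACNG4, a calcium channel subunit, was at 382, 375 and 355 in vehicle and 424, 396 and 371 in estradiol, with an adjusted p of 0.61.

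The Notch and WNT pathways had members on both sides. In Notch, 3 of 29 rose and 3 fell (7 and 9 with the block), 10.3% in each direction, against 8.65% and 6.72% of all genes. With libraries 2 left out of all 4 groups, 4 Notch genes rose and 9 fell. The target HEY2 went from 2.86, 2.87 and 1.3 to 7.62, 9.8 and 9.84 (1.95 ± 0.31), while the target HES1 went from 53.3, 83.8 and 53 to 23.6, 38.2 and 24 (-1.15 ± 0.21). The ligand JAG2 and the feedback gene NRARP rose by 0.72 and 0.48, and the coactivator MAML2 fell by 1.12. In WNT, 4 of 33 rose (12.1%) and 5 fell (15.2%), and 9 fell with the block. The number that fell was 2 without vehicle library 1 or estradiol library 2 and 3 without vehicle library 3 or estradiol library 1 or 3. The ligand WNT10B and the receptor FZD9 rose by 1.30 and 1.65 from levels under 3 CPM. ZNRF3 and RNF43, paired ubiquitin ligases that remove WNT receptors, went opposite ways, ZNRF3 up by 0.59 and RNF43 from 34.5, 22.2 and 28.4 to 17.1, 14.5 and 13.8. TCF7L1, a repressor at WNT targets, fell by 0.47, and the co-receptor LRP5 did not pass the test (0.06 ± 0.10).

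Of 31 MAPK feedback and immediate-early genes 6 rose and 5 fell (9 fell with the block), and 3 fell without vehicle library 1 or estradiol library 3. KLF10, a TGF-beta and estrogen early gene, went from 12.7, 13.1 and 13.5 to 22.9, 22.9 and 27.7, and IER3 and SPRED1 rose by 0.73 and 0.78. The feedback genes SPRY1 and DUSP5 fell by 1.26 and 0.81, and the AP-1 gene JUNB went from 50.1, 63.4 and 42.8 to 26.7, 36.3 and 29.2. JUND was at 369, 434 and 336 in vehicle and 329, 385 and 327 in estradiol, an overlap.

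Of 20 clock genes tested 0 rose and 4 fell, among them CRY2, PER1 and CSNK1D, and with the block 1 rose and 8 fell. CRY2, a core repressor of the clock, went from 61.9, 54.7 and 60.2 to 36.8, 33.5 and 38.8 (-0.70 ± 0.11), and PER1 fell by 0.64. The kinase CSNK1E, a paralog of CSNK1D, did not pass the test (0.07 ± 0.11).

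Numbered zinc finger genes, a large set of mostly repressive factors, leaned down. Of 447 tested 3 rose and 25 fell, which is below the share of all genes in both directions, with a median of -0.18. With the block 16 rose and 95 fell, without libraries 2 in all 4 groups 9 rose and 54 fell, 5 rose without vehicle library 2 or 3, and the number that fell was 11 without vehicle library 1, 46 without vehicle library 2 and 15 without estradiol library 2. ZNF704 went from 206, 120 and 200 to 92, 63.2 and 93.1 (-1.08 ± 0.21), and ZNF750, a factor of epidermal differentiation, from 17.2, 17.2 and 16.9 to 9.03, 6.35 and 6.79. ZNF596 and ZNF608 fell by 1.47 and 1.25. The 3 that rose were ZNF703, ZNF496 and ZNF367, an E2F-site gene shown above, which went from 10, 10.3 and 14.7 to 34.5, 28.4 and 31.2.

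Glycan-building enzymes split as well. Of 71 glycosyltransferase and sulfotransferase genes 8 rose and 10 fell. With 1 library left out 4 rose without vehicle library 1 and 5 without estradiol library 2, and 6 fell without vehicle library 1 or 3 or estradiol library 2 or 3. B4GALT1, which adds galactose, went from 182, 120 and 192 to 515, 400 and 522 (1.54 ± 0.21), and GALNT5, which starts O-glycans, from 0.201, 0.718 and 0.313 to 5.32, 5.11 and 5.28. ST6GAL1 went from 176, 150 and 156 to 70.7, 59.3 and 67.1 and ST3GAL1 from 153, 116 and 140 to 51.5, 45.9 and 53. The sialyltransferase gene ST8SIA1 and the sulfotransferase gene CHST1 fell by 1.69 and 1.65. The 3 sialyltransferase genes named here fell. They were picked for the size of their change, and sialyltransferase genes were not counted as a group.

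The remaining lists had few members past the threshold. Of 23 BCL2 family and IAP genes 3 rose and 2 fell (6 and 6 with the block): BIRC5, survivin, rose by 0.62 ± 0.13, and BMF, a death-promoting member, fell by 1.01 ± 0.21. Of these, 1 rose without vehicle library 1 or 3, and 1 fell without any 1 library other than vehicle library 3. Of 21 genes of MHC class I presentation 1 fell (with the block 1 rose and 5 fell) and CANX did not pass the test. Without vehicle library 1 or 3 or estradiol library 1 or 3, 0 of them fell, and without vehicle library 2, 1 rose. Of 52 lysosome and autophagy genes 3 rose and 4 fell (5 and 10 with the block). GLA rose by 0.65, NBR1 fell by 0.47, and 1 to 3 fell with any 1 of the 6 libraries left out. Of 46 matrix and integrin genes 2 rose (0 or 1 with any 1 of the 6 libraries left out) and 4 fell (11 with the block), with FN1, fibronectin, from 148, 114 and 135 to 83.4, 63 and 64.8, and ITGA10 and LAMB1 lower by 1.06 and 0.51 (log2). Of 16 keratins 2 rose and 2 fell (5 and 5 with the block, and 1 to 3 in each direction with 1 library left out), among them KRT86, which fell (adjusted p = 0.0046). Of 17 genes of estrogen metabolism 1 fell and 0 rose (5 and 3 with the block), and 1 rose without vehicle library 3 or estradiol library 1. The gene that fell was STS, steroid sulfatase, which frees estrogens from their sulfates, from 80.1, 63 and 76.4 to 52.6, 42.7 and 47.5. Of 116 noncoding RNA genes 11 rose and 6 fell (13 with the block). LINC00565 and SNHG15 rose by 2.69 and 1.48, LINC01137 and LINC00863 fell by 0.93 and 0.72, and MALAT1 did not pass the test. The noncoding genes that rose numbered 3 to 15, and those that fell 2 to 7, with any 1 of the 6 libraries left out.

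The same treatment in HOXB13 cells gave the same direction for nearly all of these genes. The 2 responses share no library, but the filter, the scaling and the estimate of the spread were made jointly. In HOXB13 cells 1068 genes rose (7.22%) and 944 fell (6.38%). Of the 1280 genes that rose in control cells, 1273 were above 0 in HOXB13 cells and 911 were called there too, which is 71.2% of the control list and 85.3% of the HOXB13 list. Of the 995 that fell, 984 were below 0 and 709 were called, 71.3% of the control list and 75.1% of the HOXB13 list. No gene was called in opposite directions. The median change of the genes that rose was 0.75 in control cells, where they were chosen, and 0.65 in HOXB13 cells, and of those that fell -0.63 and -0.56. The difference between the 2 responses was tested for each gene, and edgeR called 0 (0%) at an adjusted p of 0.05, with 219 genes at an unadjusted p under 0.05. DESeq2 and limma-voom also called 0, and 239 and 226 genes had an unadjusted p under 0.05. With the replicate block edgeR called 0, with 585 genes at an unadjusted p under 0.05. Without libraries 2 in all 4 groups it called 1, with 410 such genes. Each of these unadjusted counts is under a share of 0.05 of the genes tested, which is expected at that threshold with no difference. A count of 0 does not show that the responses are equal. GREB1 rose by 1.28 in HOXB13 cells, MYC by 1.85 and E2F1 by 1.34, ERBB2 fell by 1.15, and the differences did not pass the test.

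**Figure D4:**
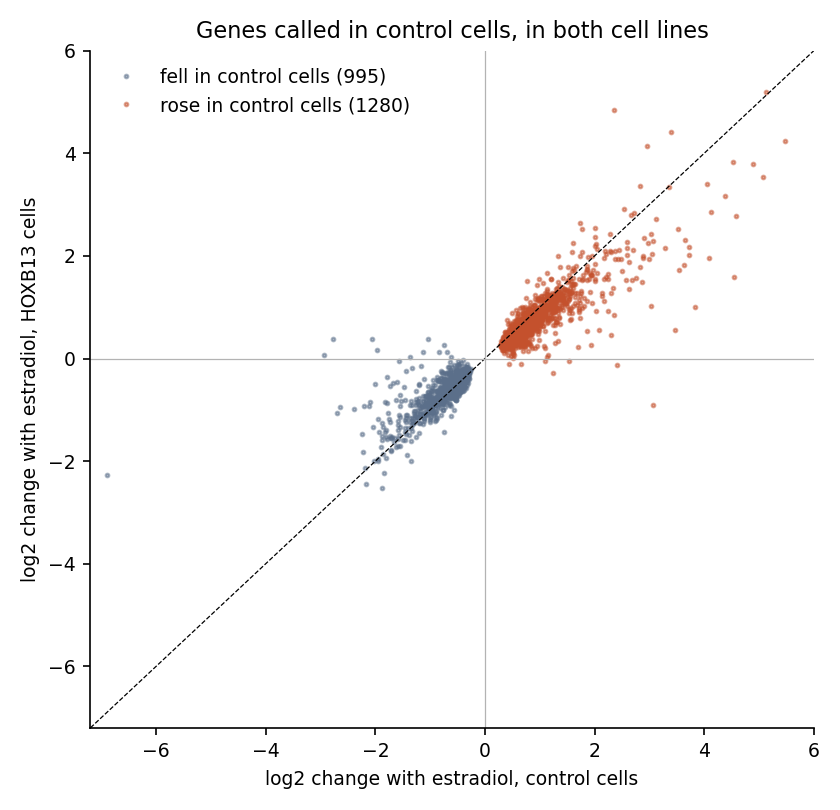
Log2 change with estradiol in HOXB13 cells (vertical) against control cells (horizontal) for the 1280 genes that rose and the 995 that fell in control cells; the dashed line marks equal change. Nearly all points lie in the quadrants of equal sign (1273 and 984); the point far left is a gene with 0 counts in the estradiol libraries, whose fitted value is not a measured fold.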

How the data were processed

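RNA from 12 T47D libraries was sequenced, and raw counts per gene symbol were deposited by the authors as 1 table, with no normalization. Per the submitters' processing notes, FastQC, STAR, Picard and HTSeq were used with GRCh37 (hg19). The sources used here give no versions, annotation or strandedness, so overlapping and antisense genes cannot be told apart, and near-identical copies, such as the pseudogenes among the HNRNP symbols and the ribosomal genes, are uncertain.

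Of 55882 symbols, 30284 had no counts and 14799 passed edgeR's filterByExpr (minimum count 10, minimum total 15). No value column was without a sample (0). Libraries were scaled by TMM, and all 12 were fitted by group with edgeR 4.0.16 (R 4.3.3) and its quasi-likelihood test, with Benjamini-Hochberg adjustment over all tested genes and a threshold of 0.05. Log2 CPM for levels used a prior count of 2. CPM values and log2 changes were computed here from the deposited counts. Alternatives were a replicate block, DESeq2 1.42.0, limma-voom (limma 3.58.1), other size factors, no filter, the 6 control libraries alone and left-out libraries, 13 in all. The scripts were tested on simulated data.

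Replicate numbers come from the labels. Residuals of vehicle and estradiol libraries of the same number correlated across genes at 0.293, 0.457 and 0.132, and those of different numbers at -0.352 to 0.105. Every same-numbered pair exceeded 0.1, but so did vehicle library 3 with estradiol library 1 (0.105). The replicate number was used as a block in an alternative fit, and the fit reported here has no block.

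Genes were named by rule: the leading genes by test statistic, by change in CPM and within each list, plus members of each list that did not pass. The members and lists were chosen with earlier results of these data known. Promoter windows came from RefSeq (GRCh38), for tested protein-coding genes outside chromosome 8, matched by symbol, 702 of them by an older symbol, and their coordinates are not those of the deposited files' build. The motif shares had no test. Some named genes are not reported here.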

Additional observations from a re-analysis of the deposited data

How the results depend on the processing

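The numbers of genes changed at least 2-fold stayed within 1.5 times of 396 and 193 in all 13 alternatives, at 344 to 455 higher and 131 to 249 lower. The replicate block moved the counts at the threshold to 2594 higher and 2438 lower. With 1 library left out, 861 to 1500 genes rose and 587 to 1258 fell, the latter reaching 626 without vehicle library 1, 647 without estradiol library 2 and 587 without estradiol library 3. Without libraries 2 in all 4 groups 1917 rose and 1650 fell. DESeq2 gave 1531 and 1287, and the 6 control libraries alone 1022 and 776. For the difference between HOXB13 and control responses, 4 genes were called with no filter and 1 without libraries 2, and 0 in the other alternatives run. The 6 control libraries alone give no value for it. ESR1, at -0.13 and not past the threshold, lay between -0.329 without vehicle library 2 and 0.064 without vehicle library 1, with 0.045 without estradiol library 2. The cause was not tested. Among the genes named in the text, the block changed no call other than those given beside their values. Low genes limit the precision, with a median standard error of 0.45 (log2) among the 25% of genes with the lowest levels.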
